A study of Mus musculus with 11 samples.

Results

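The mouse zinc finger genes named Zfp900 to Zfp999 were taken from the joined count tables by name alone. They were 63 of the 33188 genes listed, so no measured value chose them. RNA was read from whole testes of C57Bl6/J mice at postnatal day 5, in 11 poly-A-enriched libraries. WT (2 libraries) were the controls, littermates of the mutants where these could be had. Dnmt3C KO (3 libraries) was homozygous for a knockout allele of Dnmt3C, a de novo DNA methyltransferase that methylates the promoters of young retrotransposons in male germ cells. Nrf1 cKO (3 libraries) had a floxed and a knockout allele of Nrf1 with Ddx4-Cre (Vasa-Cre), which is active in germ cells, so the somatic cells of these testes still had the floxed allele; the labels write this genotype Nrf1KO/KO. The dKO (3 libraries) combined both sets of alleles. The sample titles say germ cells, but the other labels name testes with spermatogonia and somatic cells, and markers of Sertoli cells, Leydig cells and blood were present in every library. In such a mixture fewer cells of a type and less RNA per cell cannot be told apart.

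Most genes of this kind encode KRAB zinc finger proteins. Their tandem C2H2 zinc fingers bind DNA, each finger reading a few bases, while the KRAB box recruits Trim28, through which the H3K9 methyltransferase Setdb1 and heterochromatin proteins are brought to the bound site. Many of them bind retrotransposons and repress them, and the family has expanded in rodents by duplication of neighbouring genes, which leaves clusters of closely related copies. Nrf1 is a transcription factor whose binding to its CpG-containing motif is blocked by DNA methylation. The comparison addressed here is how the levels of these genes stood in testes without Dnmt3C, without Nrf1 in germ cells, or without both.

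Of the 63 genes, 62 encode a protein in GENCODE M21 and Zfp939 is annotated as a transcribed pseudogene. A match to the KRAB A box was found in 59 of the 62 proteins, all but Zfp956, Zfp957 and Zfp974. The proteins held from 0 to 21 C2H2 fingers, with a median of 11. Zfp974 had the most with 21, and Zfp945 and Zfp976 followed with 18 each. Zfp935, Zfp957 and Zfp972 had no match to the finger pattern.

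The genes lay on 12 chromosomes, and 44 of them fell into 6 clusters of neighbouring members. The cluster with most members was at chr4:145510759-147848366 (GRCm38) and held 16, in order Zfp990, Zfp980, Zfp986, Zfp987, Zfp992, Zfp981, Zfp993, Zfp989, Zfp991, Zfp988, Zfp978, Zfp982, Zfp985, Zfp979, Zfp984 and Zfp933. The cluster at chr17:21567008-22867134 held 10, namely Zfp948, Zfp983, Zfp995, Zfp942, Zfp943, Zfp947, Zfp994, Zfp944, Zfp946 and Zfp945. The cluster at chr2:175469985-178078476 held 9, and those on chromosomes 7, 8 and 13 held 4, 3 and 2.

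Duplication leaves stretches of identical sequence, and a read from such a stretch cannot be assigned to its gene by its sequence. Each transcript was cut into all its windows of 100 bases. In 12 members over 50% of these windows also occurred in another gene, in 15 members no window did, and the median over the 63 was 4.47%. Zfp967 and Zfp969 on chromosome 2 had all their windows shared, and Zfp935 on chromosome 13 and Zfp965 on chromosome 2 had 99.4% and 93.4%. Zfp966, Zfp967 and Zfp969 encode the same protein of 485 residues, and Zfp965 and Zfp973 share a protein of 318 residues. On chromosome 4, the proteins of Zfp991 and Zfp992 were 99.0% identical. The coding sequence of a finger and its linker, 84 bases read 5′ to 3′, is shown for the identical chromosome 2 copies and for the neighbouring gene Zfp971 (GENCODE M21, GRCm38), as the most alike of 10 fingers compared. The other 9 fingers of Zfp966 that were compared differed by 2 to 11 bases from the nearest finger of Zfp971, and the proteins were 81.9% identical. Capitals mark the base that differs between Zfp971 and the others. The stretches lie in coding exons at chr2:175920944-175921027 on the minus strand, chr2:176531077-176531160 on the plus strand, chr2:175693542-175693625 on the minus strand and chr2:178033342-178033425 on the plus strand, for Zfp966, Zfp967, Zfp969 and Zfp971 respectively.
Zfp966: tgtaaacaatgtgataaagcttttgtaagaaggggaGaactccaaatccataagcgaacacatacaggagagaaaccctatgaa
Zfp967: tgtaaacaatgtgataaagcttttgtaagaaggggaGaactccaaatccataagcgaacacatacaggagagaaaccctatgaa
Zfp969: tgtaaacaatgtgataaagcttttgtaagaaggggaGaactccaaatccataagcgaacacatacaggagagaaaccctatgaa
Zfp971: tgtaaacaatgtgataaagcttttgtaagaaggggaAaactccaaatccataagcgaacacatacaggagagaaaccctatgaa

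Most of the chromosome 2 copies had few counts. Zfp967 and Zfp969, with 100% of their windows shared, had 33 and 36 counts in all 11 libraries together, and Zfp965, with 93.4% shared, had 37. Zfp966, with 79.9% shared, had 237 counts, whereas Zfp971, with 22.1% shared, had 2911. In CPM (counts scaled to library size) per kilobase of exon, the scale on which genes of unlike length can be set side by side, the 12 members over 50% shared had a median level of 0.423 and the other 51 a median of 2.29. This is a description across genes, which share libraries and sequence. Sharing and level did not always go together. Among the 12, Zfp935 (2.60 CPM per kilobase), Zfp993 (2.12), Zfp978 (1.84), Zfp991 (1.82) and Zfp960 (1.35) had the highest levels. In the other direction, Zfp985 and Zfp941 had 0.348 and 0.392 CPM per kilobase with 1.73% and 3.29% shared, and Zfp990 had 0.0429 with under 5% shared. Reads from such copies fit several genes, so the levels of the 12 genes over 50% shared are uncertain. Zfp957 had 6 counts in all and is only named.

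**Figure D1:**
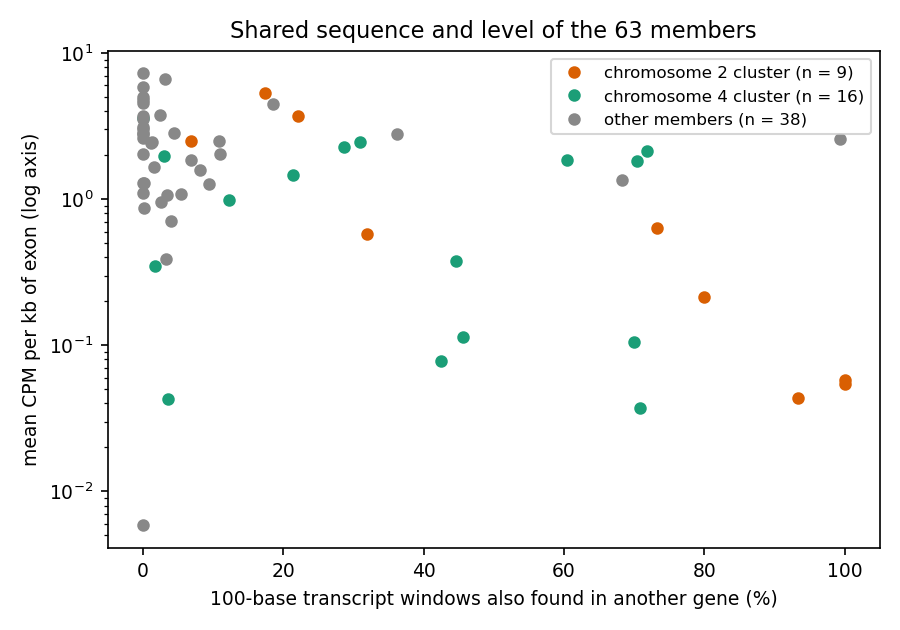
The plot of shared sequence against level shows the 63 members as points, with the percentage of 100-base transcript windows also found in another gene on the x axis and the mean level in CPM per kilobase of exon, on a log axis, on the y axis. The members with most shared sequence lie mainly at the bottom, with a median of 0.423 CPM per kilobase for the 12 over 50% shared and 2.29 for the other 51.

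As a group these genes were weakly transcribed at postnatal day 5. The median level over the 63 was 1.84 CPM per kilobase, against 4.01 for 300 other genes named Zfp and a number and 3.71 for all 18473 protein-coding genes. In 57 of the 63, every library had at least 1 count, and 8 genes had under 100 counts in all libraries together. Of these 8, 7 lay in the clusters on chromosomes 2 and 4. The level spanned from 0.00588 CPM per kilobase (Zfp957) to 7.25 (Zfp948).

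The 6 members with the highest level per length were Zfp948 (7.25 CPM per kilobase), Zfp956 (6.64), Zfp958 (5.86), Zfp970 (5.36), Zfp961 (4.98) and Zfp954 (4.73). Neighbours in this order did not differ beyond the spread of their libraries, which overlapped on this scale. Zfp961, a KRAB gene with 11 fingers, had 19.05 and 20.7 CPM in WT, 20.9, 19.8 and 22.7 in Nrf1 cKO, 22.4, 22.1 and 23.6 in dKO, and 21.5, 23.9 and 22.5 in Dnmt3C KO. Both WT libraries lay below every Dnmt3C KO and dKO library for this gene and overlapped with Nrf1 cKO. Zfp956, which lacks a KRAB A match, had 19.05 and 20.6 CPM in WT. Its mean was 20.6 ± 2.60 CPM (SD, n = 3) in Nrf1 cKO, 19.9 ± 1.71 in dKO and 18.5 ± 1.72 in Dnmt3C KO. These means lay within the spread between libraries. Zfp932, which is known to bind endogenous retroviruses together with its paralog Gm15446, had 4.49 CPM per kilobase. Its libraries gave 14.2 and 17.7 CPM in WT, 10.6, 12.0 and 13.9 in Nrf1 cKO, 16.4, 11.9 and 22.2 in dKO, and 15.01, 11.4 and 14.99 in Dnmt3C KO. The groups overlapped for Zfp932 except that all Nrf1 cKO libraries were below both WT libraries.

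**Figure D2:**
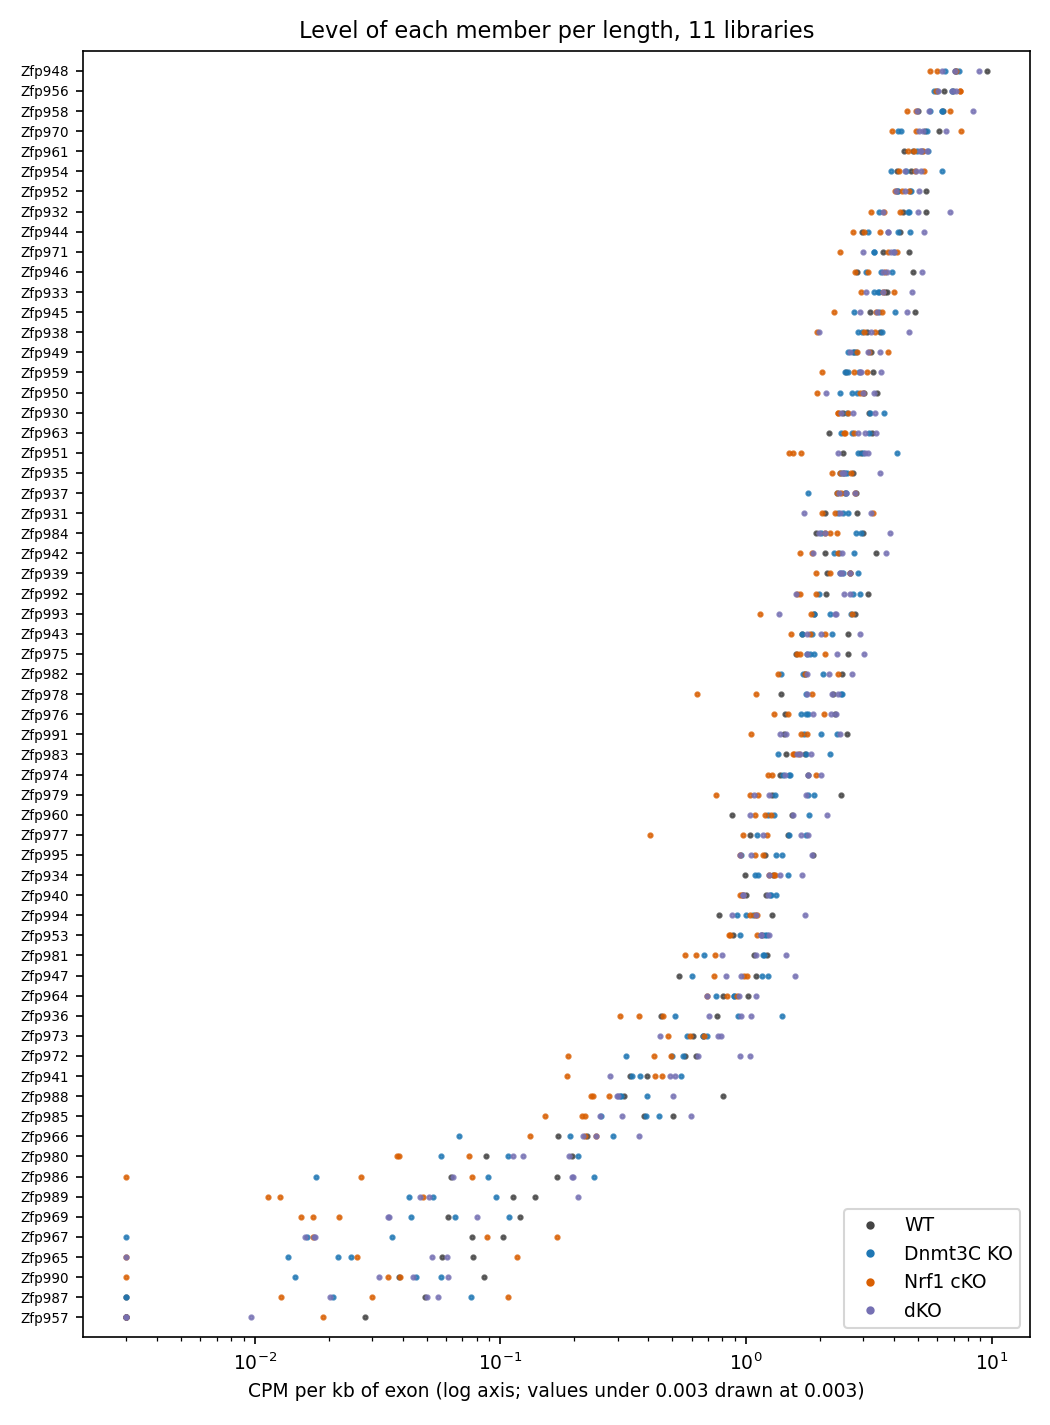
The plot of level per length gives the 63 members in rows and CPM per kilobase of exon on a log x axis, with a point for each of the 11 libraries coloured by genotype. The order runs from Zfp948 at 7.25 CPM per kilobase down to Zfp957 at 0.00588, and the 4 genotypes overlap in most rows.

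The libraries held 26063590 to 39365841 counts each, with 12374 to 19634 counts on the 63 genes. Replicates were separate libraries, and where the sources do not tie each to a separate animal the p-values measure the spread between these libraries. The counts of Nrf1 (52.2 to 57.9 CPM in Nrf1 cKO, 57.0 to 58.0 in WT) and Dnmt3c (3.01 to 4.51 CPM in Dnmt3C KO, 4.16 to 4.87 in WT) overlapped or lay close between mutant and control. They cover the whole gene and all cells of the testis and so do not check the genotypes. All 25 germ cell markers were detected, and their summed level was 624 to 750 CPM in WT, 605 to 1079 in Dnmt3C KO, 217 to 449 in Nrf1 cKO and 286 to 622 in dKO. The 14 Sertoli cell markers, the supporting cells of the tubule, summed to 3695 to 3725 CPM in WT, 3675 to 4937 in Dnmt3C KO, 4347 to 5942 in Nrf1 cKO and 4334 to 4856 in dKO. The 5 red blood cell markers reached 2123 CPM in WT replicate 2, against 261 to 1773 in the other libraries.

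The summed level of the 63 genes varied as much within genotypes as between them. It was 436 and 569 CPM in WT, 386, 433 and 479 in Nrf1 cKO, 495, 428 and 600 in dKO, and 500.0, 444 and 494 in Dnmt3C KO, and the ranges of the 4 genotypes overlapped. WT replicate 2 and dKO replicate 3 were the highest, and Nrf1 cKO replicate 1 was the lowest. Among the 55 members with 100 counts or more, dKO replicate 3 was the highest library for 26 (47.3%, against 6.20% of 20911 features with as many counts) and WT replicate 2 for 12 (21.8%, against 12.1%). Nrf1 cKO replicate 1 was the lowest library for 22 of them (against 13.1% of features). For 8 of the 55 genes the SD of the 4 genotype means exceeded the pooled SD between replicates. The median SD of the genotype means was 0.128 and the median SD between replicates 0.249, both on the log2(CPM + 1) scale. A mean over libraries varies less than a single library, so these SDs do not show that genotypes did not differ. The same count over all features was not made.

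The order of the libraries by this sum was not their order by germ cell markers. In dKO replicate 3 the 63 genes summed to 600 CPM and the germ cell markers to 286, whereas in dKO replicate 1 these sums were 495 and 622. The 309 other Zfp genes moved less, with sums between 8413 and 9802 CPM. Whether tissue composition has a part in the levels of the 63 genes was not tested.

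**Figure D3:**
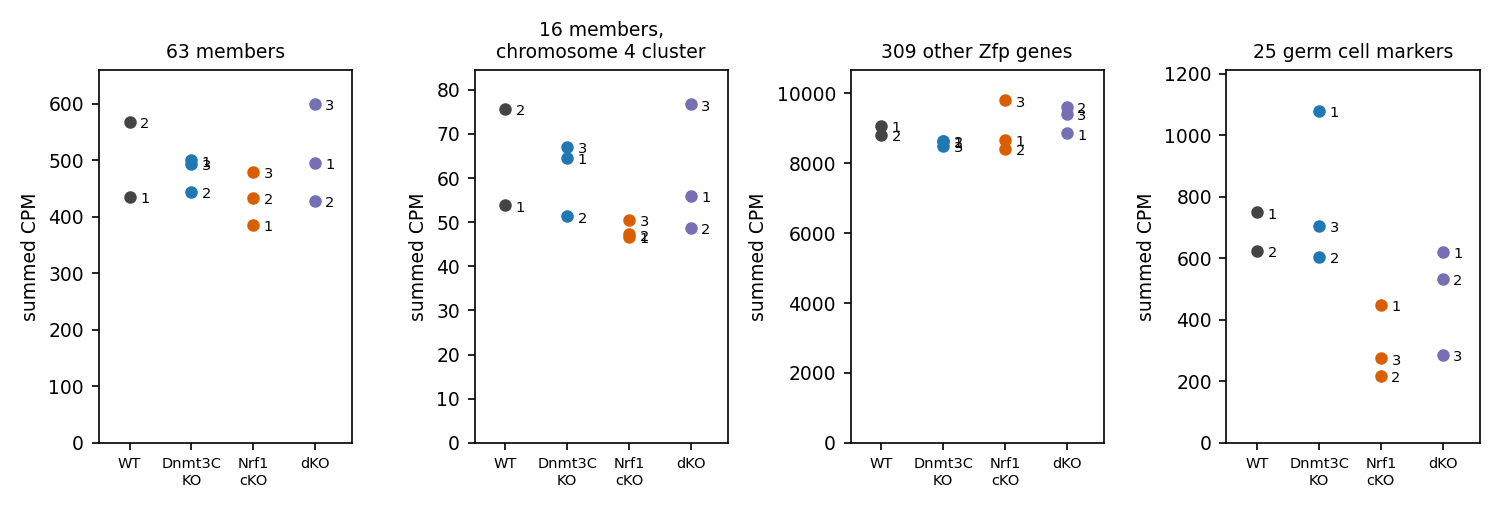
The 4 panels plot summed CPM on the y axis for each library (points, numbered by replicate) by genotype, for the 63 members, the 16 members of the chromosome 4 cluster, the 309 other Zfp genes and the 25 germ cell markers. The member sum is highest in dKO replicate 3 (600 CPM) and WT replicate 2 (569), while the germ cell marker sum is lowest in Nrf1 cKO replicate 2 (217).

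No member passed an adjusted p of 0.01 in any comparison by edgeR's quasi-likelihood test with Benjamini-Hochberg adjustment over all features tested, genes and TE subfamilies together. DESeq2 called none of them either. Few features passed at all: edgeR called 1 feature in a single comparison, and DESeq2 called from 0 to 53 per comparison. The values that follow are given as measured, with unadjusted p-values named as such. A filter on low counts removed Zfp957, Zfp965, Zfp967, Zfp969, Zfp986, Zfp987, Zfp989 and Zfp990 from most fits, all with under 100 counts, and only Zfp989 was tested in some (dKO against WT and the fits over all libraries). Medians are over the members tested. Over all 63 without the filter they differed by at most 0.02 from these.

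In Dnmt3C KO against WT, 55 members could be tested and 0 were called, against 0.0% of the 21664 features tested. At an unadjusted p under 0.05 there were also 0, against 5.41% of all features. The groups did not overlap for 5 members, or 9.09% of those tested, against 21.3% of features. Zfp961 and Zfp940 were the higher of these in Dnmt3C KO, and Zfp950, Zfp933 and Zfp972 the lower. The median log2 fold change was -0.08, beside 0.01 over all features. Zfp950 had the smallest p (log2 fold change -0.28, SE 0.15, unadjusted p = 0.0831, adjusted p = 0.924 by edgeR). Zfp988, Zfp936, Zfp970 and Zfp948 followed, with log2 fold changes of -0.73, 0.64, -0.31 and -0.25 and unadjusted p-values from 0.134 to 0.181. Zfp936 had 4.59, 1.68 and 3.05 CPM in Dnmt3C KO and 2.48 and 1.47 in WT, so the groups overlapped. The direction of the median rested on WT replicate 2, without which it was 0.23, and the value of Zfp988 was 0.099. Without that library Zfp948 was at -0.008, Zfp936 at 0.33, Zfp970 at -0.19 and Zfp950 at -0.18. Zfp936 was at 0.26 without Dnmt3C KO replicate 1 and 1.08 without WT replicate 1, and Zfp948 and Zfp988 were at -0.44 and -1.24 without WT replicate 1.

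In Nrf1 cKO against WT, 47 of the 55 members tested had a lower fitted level in Nrf1 cKO (85.5%, against 49.7% of all 21296 features tested). The median log2 fold change was -0.21, beside 0.00 over all features and -0.03 over 304 other Zfp genes. No member was called, against 0.0% of features. An unadjusted p under 0.05 was reached by 6 members, all lower, and 4.22% of all features were lower at that threshold. For 12 members all Nrf1 cKO libraries lay below both WT libraries, or 21.8%, against 11.6% of features. The result rested on WT replicate 2: without it, 28 of 57 members were lower and the median was 0.017.

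The 6 members were Zfp951, Zfp979, Zfp985, Zfp981, Zfp992 and Zfp988, and all but Zfp951 lie in the chromosome 4 cluster. Zfp951 (chr5:104813169-104860070, minus strand) encodes a KRAB protein with 10 fingers and shares no window with another gene. It had 11.8 and 13.9 CPM in WT, 7.31, 7.10 and 7.90 in Nrf1 cKO, 11.2, 14.4 and 14.9 in dKO, and 19.6, 13.5 and 14.2 in Dnmt3C KO. All Nrf1 cKO libraries lay below each of the other 8, while the other 3 genotypes overlapped. The log2 fold change against WT was -0.80 (SE 0.23, unadjusted p = 0.00581, adjusted p = 0.784 by edgeR). It stayed between -0.89 and -0.67 when any library was left out, and its adjusted p by DESeq2 was 0.167.

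Within the chromosome 4 cluster, all 12 members tested had a log2 fold change below 0, from -1.45 to -0.09, with a median of -0.61. The lowest, Zfp980, had 4 to 26 counts per library. Shared windows made up 71.9% in Zfp993, 70.3% in Zfp991, 60.5% in Zfp978, 45.6% in Zfp980, 44.6% in Zfp988, 28.6% in Zfp992 and 21.5% in Zfp979. Reads of such members can fit several genes, so the 12 values are not separate observations. The median of the 43 members tested elsewhere was -0.15. Zfp985, with 1.73% of its windows shared, had 1.11 and 1.44 CPM in WT, 0.637, 0.435 and 0.619 in Nrf1 cKO, 0.731, 0.896 and 1.71 in dKO, and 1.12, 0.737 and 1.27 in Dnmt3C KO. The Nrf1 cKO libraries were the lowest of the 11, and the gene had 16 to 56 counts per library. Its log2 fold change was -1.18 (SE 0.47, unadjusted p = 0.0295, adjusted p = 0.847 by edgeR). Zfp979 had 5.23 and 9.97 CPM in WT and 4.61, 4.27 and 3.10 in Nrf1 cKO (log2 fold change -0.93, SE 0.34, unadjusted p = 0.0222). Zfp988 had 0.890 and 2.25 CPM in WT and 0.668, 0.653 and 0.774 in Nrf1 cKO (log2 fold change -1.17, SE 0.49, unadjusted p = 0.0402), so that WT replicate 1 lay close to the Nrf1 cKO libraries. Zfp981 and Zfp992 had log2 fold changes of -0.83 and -0.61. Without WT replicate 2, the value of Zfp979 was -0.39 and that of Zfp992 -0.30, while those of Zfp981 and Zfp985 were -0.74 and -0.98. Beside these, Zfp933, at the distal end of the same cluster and with no shared window, had -0.09 (SE 0.21). Summed over the 16 genes, the cluster gave 53.8 and 75.6 CPM in WT, 46.7, 47.2 and 50.6 in Nrf1 cKO, 56.0, 48.7 and 76.7 in dKO, and 64.5, 51.3 and 67.0 in Dnmt3C KO. The Nrf1 cKO sums were below both WT sums and overlapped with dKO. Without WT replicate 2, the cluster's median was -0.21 and 9 of 13 members tested were lower. In the 10 members of the chromosome 17 cluster the log2 fold changes ran from -0.52 (Zfp995) to 0.16 (Zfp947).

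The germ cell marker sums of Nrf1 cKO (217 to 449 CPM) also lay below those of all WT and Dnmt3C KO libraries and overlapped with dKO. In these libraries a lower level of a gene used in germ cells and fewer germ cells cannot be told apart. Of the 55 members with 100 counts or more, 42 had the lowest of their 4 genotype means in Nrf1 cKO (76.4%, against 26.7% of features). Without WT replicate 2 this number was 24, and without Nrf1 cKO replicate 1 it was 27. For 4 members, Zfp940, Zfp951, Zfp985 and Zfp988, all 3 Nrf1 cKO libraries were below every other library (7.27%, against 1.46% of features). Zfp940 (chr7:29833620-29853669, minus strand) separated by little: it had 5.92, 5.74 and 5.88 CPM in Nrf1 cKO, 6.10 and 7.33 in WT, 7.64, 7.67 and 8.10 in Dnmt3C KO, and 7.45, 5.93 and 5.93 in dKO.

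**Figure D4:**
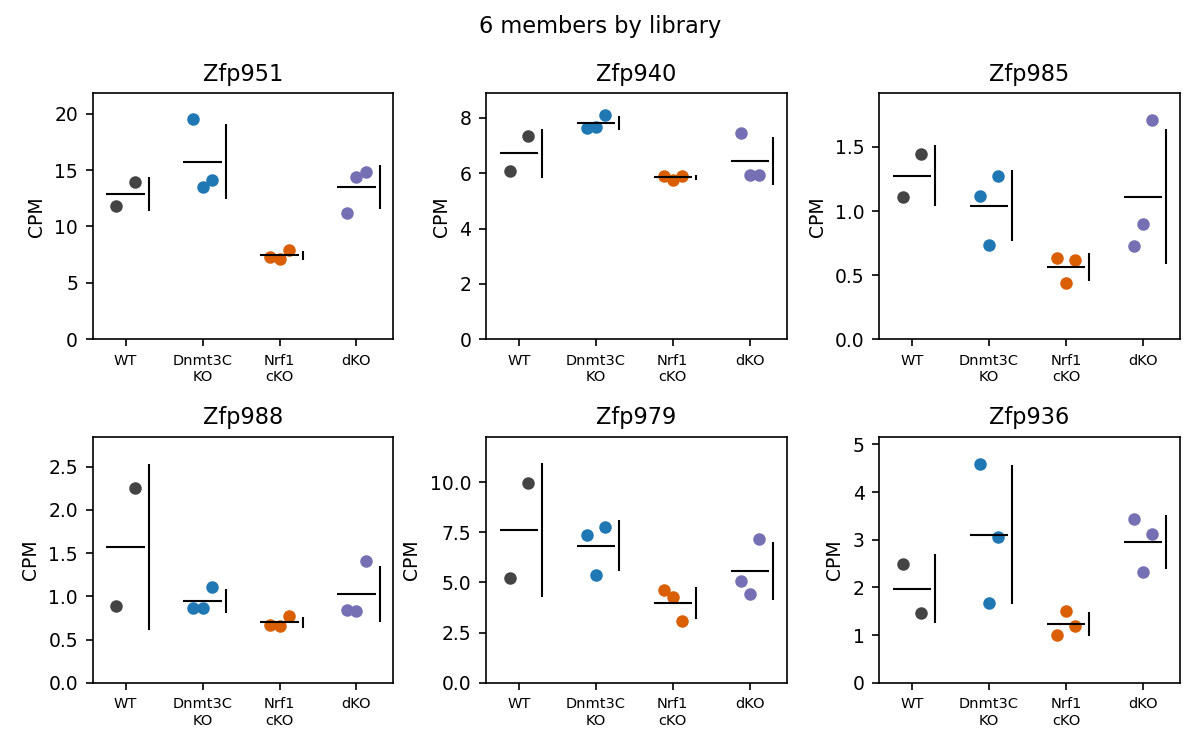
Level in CPM (y axis) of Zfp951, Zfp940, Zfp985, Zfp988, Zfp979 and Zfp936 in each library (points) by genotype, with the mean as a horizontal line and the SD as a vertical line beside it (n = 2 for WT, n = 3 for the others). In the first 4 of these genes the Nrf1 cKO libraries lie below all others, by a wide gap in Zfp951 (7.10 to 7.90 CPM against 11.2 to 19.6) and a narrow gap in Zfp940.

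The promoters of the genes that stood apart were read because Nrf1 binds a CpG-rich motif. RefSeq (GRCm38.p6) gave a promoter, from 250 bases before to 50 after the start, for 53 of the 63 members. None held the 8 bases CGCATGCG, the centre of the Nrf1 motif, on either strand, and 6.30% of 254 other Zfp promoters and 2.07% of 27025 genes did. With any base at the fifth position (CGCANGCG, which reads CGCNTGCG on the other strand), 0 of 53 members matched, against 18.5% and 9.22%. The observed over expected CpG ratio had a median of 0.41 in the members, 0.66 in the other Zfp genes and 0.39 in all genes. It was 0.6 or more in 12 members (22.6%), against 59.1% of other Zfp genes and 36.8% of all genes. No match says only that these letters are not in this window.

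The promoters of Zfp951 and Zfp940 are shown with each CpG in capitals, since these are the 2 members outside the clusters whose Nrf1 cKO libraries lay apart. They span chr5:104859978-104860277 and chr7:29853599-29853898, both on the minus strand, and hold 8 and 10 CpGs.
Zfp951: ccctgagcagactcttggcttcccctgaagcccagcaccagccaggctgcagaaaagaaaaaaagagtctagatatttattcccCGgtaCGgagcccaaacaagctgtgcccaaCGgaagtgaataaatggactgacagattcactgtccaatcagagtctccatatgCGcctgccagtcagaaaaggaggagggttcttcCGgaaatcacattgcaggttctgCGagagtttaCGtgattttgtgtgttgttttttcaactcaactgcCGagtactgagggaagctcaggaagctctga
Zfp940: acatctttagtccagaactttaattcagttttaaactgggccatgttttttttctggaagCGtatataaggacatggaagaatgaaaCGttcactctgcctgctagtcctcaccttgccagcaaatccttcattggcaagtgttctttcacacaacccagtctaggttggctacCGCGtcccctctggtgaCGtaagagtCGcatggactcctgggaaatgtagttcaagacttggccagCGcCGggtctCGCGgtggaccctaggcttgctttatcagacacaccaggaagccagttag

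Promoters of the chromosome 4 cluster have sequence in common. Those of Zfp979, Zfp981, Zfp985 and Zfp988 are shown with the run of 15 bases that all 4 contain, TGGGAAGCTAATTAA, in capitals. They span chr4:147642459-147642758 (minus strand), chr4:146514670-146514969, chr4:147305354-147305653 and chr4:147553027-147553326 (plus strand) for Zfp979, Zfp981, Zfp988 and Zfp985. On either strand the run occurred in 7 of the 10 cluster promoters in the table and in 11 of 27025 promoters (0.0407%). All 11 were on chromosome 4, among them Rex2, Zfp534 and Zfp600. The run did not go with low Nrf1 cKO libraries in every member that holds it. Besides the 4 shown and Zfp980, it was in Zfp984, whose log2 fold change in Nrf1 cKO against WT was -0.15 with overlapping groups, and in Zfp987, which had 44 counts in all and was not tested. Each of the 4 promoters holds 4 to 6 CpGs. The run was found by comparing these sequences, and whether anything binds it was not tested.
Zfp979: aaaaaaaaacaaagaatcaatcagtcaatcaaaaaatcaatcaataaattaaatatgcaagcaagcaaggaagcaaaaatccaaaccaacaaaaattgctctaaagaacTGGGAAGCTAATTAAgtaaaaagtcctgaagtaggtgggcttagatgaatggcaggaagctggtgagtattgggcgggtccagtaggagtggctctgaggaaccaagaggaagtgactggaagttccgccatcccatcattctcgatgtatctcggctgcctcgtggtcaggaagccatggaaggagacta
Zfp981: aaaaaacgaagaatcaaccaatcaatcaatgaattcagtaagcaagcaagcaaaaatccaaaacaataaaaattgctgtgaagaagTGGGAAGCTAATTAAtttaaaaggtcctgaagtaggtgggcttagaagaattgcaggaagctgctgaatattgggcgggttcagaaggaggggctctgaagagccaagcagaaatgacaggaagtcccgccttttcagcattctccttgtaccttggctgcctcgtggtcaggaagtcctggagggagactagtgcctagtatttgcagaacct
Zfp985: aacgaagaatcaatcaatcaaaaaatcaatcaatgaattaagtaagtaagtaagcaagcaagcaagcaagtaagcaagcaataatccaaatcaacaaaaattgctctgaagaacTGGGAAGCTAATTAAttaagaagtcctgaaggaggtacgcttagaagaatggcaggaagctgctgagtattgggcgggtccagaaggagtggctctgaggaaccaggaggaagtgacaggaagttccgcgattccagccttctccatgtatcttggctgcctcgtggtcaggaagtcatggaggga
Zfp988: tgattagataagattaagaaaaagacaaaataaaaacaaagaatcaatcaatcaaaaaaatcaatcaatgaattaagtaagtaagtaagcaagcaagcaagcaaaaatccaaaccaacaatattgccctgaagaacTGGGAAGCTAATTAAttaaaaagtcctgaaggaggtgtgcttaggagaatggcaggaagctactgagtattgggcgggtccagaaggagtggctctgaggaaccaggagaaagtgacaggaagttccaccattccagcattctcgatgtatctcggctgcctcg

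In dKO against Nrf1 cKO, which asks what Dnmt3C loss adds when germ cells lack Nrf1, 52 of 55 members tested had a higher fitted level in dKO (94.5%, against 48.3% of all 20381 features, 69.2% of other Zfp genes and 76.7% of 30 genes of the Trim28 pathway). The median log2 fold change was 0.25, beside -0.01 over all features and 0.07 over 302 other Zfp genes. No member was called, against 0.0% of features. An unadjusted p under 0.05 was reached by 6 members, all higher, and 1.94% of all features were higher. In 11 members no Nrf1 cKO library reached the lowest dKO library, against 4.14% of features. This comparison and that with WT share the Nrf1 cKO libraries, so their opposite directions are not separate observations. Without dKO replicate 3, 40 of 55 were higher and the median was 0.12, and without Nrf1 cKO replicate 1 these values were 45 of 55 and 0.18.

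Zfp951 again had the smallest p, with a log2 fold change of 0.86 (SE 0.19, unadjusted p = 0.0011, adjusted p = 1.00 by edgeR and 0.0276 by DESeq2). Zfp936 (chr7:43114229-43192109, plus strand), a KRAB gene with 11 fingers, had 1.00, 1.50 and 1.20 CPM in Nrf1 cKO and 3.43, 2.32 and 3.12 in dKO (log2 fold change 1.26, SE 0.32, unadjusted p = 0.00337). For both genes the groups did not overlap. Zfp980, Zfp981 and Zfp972 had log2 fold changes of 1.46, 0.79 and 1.26, with unadjusted p-values from 0.022 to 0.0339. Zfp980 had 0.152, 0.299 and 0.155 CPM in Nrf1 cKO and 0.450, 0.494 and 0.764 in dKO. It had 4 to 26 counts per library and 45.6% of its windows shared, and it passed the filter through dKO, where it was higher. Zfp944, of the chromosome 17 cluster, had 7.62, 8.41 and 9.79 CPM in Nrf1 cKO and 10.51, 10.50 and 14.8 in dKO (log2 fold change 0.47, unadjusted p = 0.0478). Zfp972, a short KRAB gene of 139 residues without fingers, was the only member whose dKO libraries lay above all others, at 0.815, 0.896 and 0.550 CPM, where the next library was WT replicate 2 at 0.541 (1.82% of members, against 0.182% of features). It had 6 to 29 counts per library and 32.0% of its windows shared.

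**Figure D5:**
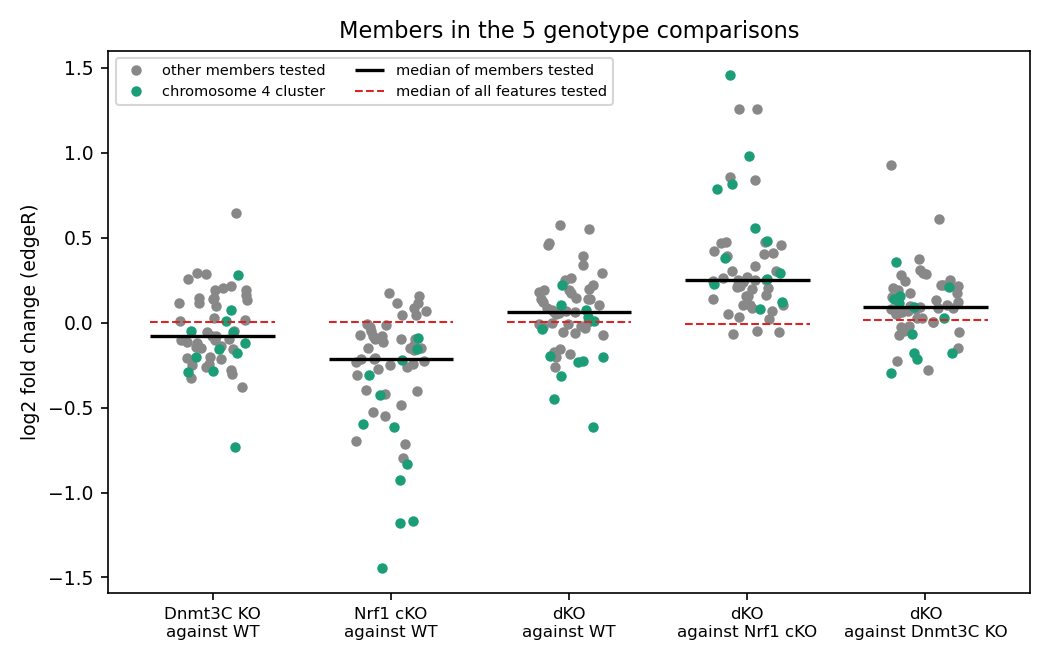
Log2 fold changes by edgeR (y axis) of the members tested in the 5 comparisons of genotypes, with the chromosome 4 cluster in green, the median of the members as a black line and the median of all features as a red dashed line. The members lie mostly below 0 in Nrf1 cKO against WT (median -0.21) and mostly above it in dKO against Nrf1 cKO (median 0.25), which share the Nrf1 cKO libraries.

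In dKO against WT, 56 members were tested and 0 called, against 0.0% of 21488 features. At an unadjusted p under 0.05 there were 0, against 1.74% of features, and the groups did not overlap for 2 members, Zfp961 and Zfp972 (against 13.1% of features). The median log2 fold change was 0.06, beside 0.01 over all features. The 5 smallest p-values were those of Zfp936 (log2 fold change 0.58), Zfp979 (-0.45), Zfp934 (0.34), Zfp988 (-0.61) and Zfp961 (0.19), all with an adjusted p of 1.00 by edgeR. The interval of the Zfp936 difference ran from -0.14 to 1.29 and that of Zfp979 from -1.11 to 0.21 (95%), so both span 0 and reach beyond 1 log2 unit. Without WT replicate 2, the values of Zfp979, Zfp988, Zfp936 and Zfp934 were 0.091, 0.21, 0.25 and 0.54 and the median was 0.24. Without WT replicate 1 these values were -0.85, -1.14, 1.00 and 0.16 and the median was -0.11, and without dKO replicate 3 the median was -0.05 and Zfp934 was at 0.21.

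In dKO against Dnmt3C KO, 55 members were tested and 0 called, against 0.0% of 20783 features, and 0 passed an unadjusted p of 0.05, against 7.18% of features. The groups did not overlap for 4 members, Zfp972, Zfp976 and Zfp959 with higher and Zfp940 with lower dKO libraries (7.27%, against 13.6% of features). The median log2 fold change was 0.09, beside 0.02 over all features. Zfp972 had the smallest p (log2 fold change 0.93, SE 0.43, unadjusted p = 0.0582, adjusted p = 0.675 by edgeR). Zfp976, with 18 fingers, had 11.1, 9.33 and 11.6 CPM in dKO and 8.38, 8.74 and 8.92 in Dnmt3C KO (log2 fold change 0.30, SE 0.16). Zfp975, Zfp970 and Zfp940 had log2 fold changes of 0.38, 0.28 and -0.28. Without dKO replicate 3 the median was -0.06 and Zfp975 was at 0.17, without dKO replicate 2 the median was 0.21, and without dKO replicate 1 Zfp970 was at 0.14.

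Fitted over all 11 libraries, Nrf1 deletion gave a median log2 fold change of -0.04 over 56 members, beside 0.00 over all 22594 features. No member was called, against 0.00443% of features. At an unadjusted p under 0.05, 3 members were lower, against 4.66% of features: Zfp951 (-0.51, SE 0.14, unadjusted p = 0.00272, adjusted p = 0.367 by edgeR), Zfp979 (-0.61) and Zfp992 (-0.39). Zfp985 and Zfp988, at -0.54 and -0.52, did not pass that threshold. Leaving out WT replicate 2 put Zfp979 at -0.34, Zfp992 at -0.23 and Zfp988 at -0.12, and without WT replicate 1 Zfp988 was at -0.79. Dnmt3C loss gave a median of 0.13 beside 0.00, with 0 members called against 0.0% of features. It averages Dnmt3C KO against WT (median -0.08) and dKO against Nrf1 cKO (0.25). These effects and the interaction use the same libraries as the pairs, so they are not separate observations. With Dnmt3C loss, 2 members were higher at an unadjusted p under 0.05, against 1.95% of features: Zfp951 (0.58, SE 0.14, unadjusted p = 0.0012, adjusted p = 0.660 by edgeR and 0.031 by DESeq2) and Zfp936 (0.95, SE 0.28). Zfp951 was at 0.29 (SE 0.21) in Dnmt3C KO against WT and at 0.86 in dKO against Nrf1 cKO. Zfp978, Zfp944 and Zfp977 followed at 0.55, 0.31 and 0.52, and Zfp944 was at 0.19 without WT replicate 1. Single libraries moved both medians. That of Nrf1 deletion was 0.048 without WT replicate 2, 0.030 without dKO replicate 2 and 0.004 without Nrf1 cKO replicate 1. That of Dnmt3C loss was 0.021 without WT replicate 1, 0.034 without dKO replicate 3, 0.085 without Nrf1 cKO replicate 1 and 0.25 without WT replicate 2.

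The interaction, which tests whether Dnmt3C loss acted differently with and without Nrf1 in germ cells, had a median of 0.32 over the 56 members, beside -0.01 over all features. Of the 56, 51 were above 0 (91.1%, against 49.2% of features and 66.2% of 305 other Zfp genes). No member was called, against 0.0% of features, and DESeq2 called none. At an unadjusted p under 0.05, 4 members were higher and 0 lower, against 3.68% of features higher. These were Zfp989 (3.05, SE 1.18, from 66 counts in all libraries together), Zfp972 (1.64, SE 0.70), Zfp981 (0.97, SE 0.44) and Zfp988 (1.29, SE 0.59), and Zfp985 followed at 1.27 (SE 0.60, unadjusted p = 0.0537). Zfp989 passed the filter through its highest libraries, WT replicate 2 (0.330 CPM) and dKO replicate 2 (0.494). Both genotypes enter the interaction with a plus sign, so its value is not read as a result. The other dKO libraries had 0.112 and 0.122 CPM, and without dKO replicate 2 it was not tested. Without WT replicate 2 the median was 0.12 and 37 of 58 members were above 0. Without dKO replicate 3 these values were 0.22 and 39 of 56. Zfp988 was at 0.45 without WT replicate 2, and Zfp985 at 0.82 without dKO replicate 3.

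The partners of these proteins were measured in the same libraries. Of 30 pathway genes tested, among them Trim28, Setdb1, the HP1 proteins Cbx1, Cbx3 and Cbx5, and the HUSH complex genes Tasor, Mphosph8 and Pphln1, 0 were called in any comparison by edgeR or by DESeq2. An unadjusted p under 0.05 was reached in Dnmt3C KO against WT by Atrx, Tasor and Zfp445, all lower, as by 2.86% of all features. In Nrf1 cKO against WT it was reached by Mphosph8, lower (log2 fold change -0.43, SE 0.19, with 4.22% of features lower). In dKO against Dnmt3C KO, Atf7ip and Tasor were higher, with 3.1% of features, and in both other comparisons with dKO there were 0. Over all 11 libraries, Mphosph8, Suv39h2 and Morc3 were lower with Nrf1 deletion (4.66% of features), and Dnmt3C loss had 0. The interaction had Tasor (0.71), Zfp445 (0.58) and Atrx (0.49) higher, with 3.68% of features. Trim28, the corepressor that KRAB boxes recruit, had log2 fold changes of 0.17 in Dnmt3C KO, 0.18 in Nrf1 cKO and 0.22 in dKO against WT, with SEs from 0.21 to 0.25. Setdb1, which methylates H3K9 at the bound sites, had -0.09, 0.07 and 0.11. Gm15446, the paralog of Zfp932, had 9.07 and 11.3 CPM in WT, 6.67, 8.84 and 6.70 in Nrf1 cKO, 9.30, 7.50 and 14.8 in dKO, and 12.0, 8.13 and 8.79 in Dnmt3C KO. Its Nrf1 cKO libraries lay below both WT libraries (log2 fold change -0.47, SE 0.26) and overlapped with dKO. Zfp932 has 18.5% of its windows shared, 596 of 622 of them with Gm15446, so reads can fit either gene and their values are not independent. Zfp57, which guards imprinted loci, and Zfp809, which silences retroviruses, had log2 fold changes against WT of -0.30 (SE 0.16) and -0.29 (SE 0.17) in Dnmt3C KO. In dKO the values were -0.15 and -0.06, and in Nrf1 cKO -0.09 and -0.11.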

How the data were processed

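RNA of 11 whole testes samples was sequenced by a stranded, poly-A-enriched, paired-end protocol. The authors aligned the reads to GRCm38 with STAR 2.7.3a, keeping multiple hits, and ran TEtranscripts to count genes and TE subfamilies. The deposited values used here are raw counts. How reads that fit several gene copies were shared out was not resolved. The 6 pairwise tables were joined, and 0 values differed between them. Their columns of the authors' DESeq2 1.44.0 comparisons (fold changes and p-values) were not used, nor was a TPM table of TE copies, which holds no genes. Libraries were matched through the labels, where replicate 3 of Dnmt3C KO and of dKO carries another number in the tables.

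Counts were filtered with filterByExpr, normalised by TMM and tested with edgeR 4.0.16 (quasi-likelihood, Benjamini-Hochberg, adjusted p under 0.01) in R 4.3.3. Each pair of genotypes was fitted alone. The effects of Nrf1 deletion and of Dnmt3C loss, each averaged over the other genotype, and their interaction were fitted over all 11 libraries. SEs were derived from the F statistic, and 95% intervals are the estimate ± 1.96 SE. CPM used the TMM library sizes. Alternatives were DESeq2 1.42.0, its size factors, no filter, library sizes from genes only, an adjusted p of 0.05, all genotypes in the same fit, a replicate block and leaving out each library. Replicates of a genotype differed beyond counting noise (chi-square per degree of freedom from 19.5 to 69.2). On simulated counts with 200 changed genes, the test recovered 98.5% for 3 against 2 libraries and 99.0% for 3 against 3. Recovery at the log2 fold changes and the replicate spread measured for the 63 genes was not tested.

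Positions, exon lengths, coding sequences and shared windows came from GENCODE M21 (GRCm38), promoters from RefSeq (GRCm38.p6). A finger was 2 cysteines with 2 residues between them, 12 residues, and 2 histidines with 3 to 5 between them. Clusters joined members whose starts lay within 1000000 bases. Members named in a comparison were the 5 with the smallest p, and further those under an unadjusted p of 0.05. Where groups did not overlap for 5 members or fewer, these were named too. Also named were the 6 highest per length, the most fingers, the members of the 2 largest clusters and the most alike proteins. Zfp932, Zfp933, Zfp935, Zfp940, Zfp941, Zfp960 and the promoter run were singled out after their values were seen. Zfp968 was not analysed here. The members and lists were chosen with earlier results of these data known.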

Additional observations from a re-analysis of the deposited data

How the results depend on the processing

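No member was called at an adjusted p of 0.01 under any of the alternatives, or at 0.05 by edgeR. At 0.05, DESeq2 would add Zfp951 in dKO against Nrf1 cKO (adjusted p = 0.0276) and for Dnmt3C loss (0.031). Of 753 alternative values of 57 results, 745 kept their direction and their side of the threshold, or moved by less than the replicate spread. The other 8 came from leaving out a library. Without WT replicate 2 the median log2 fold change of the members was 0.23 in Dnmt3C KO against WT, 0.017 in Nrf1 cKO against WT and 0.12 for the interaction, Zfp988 turned to 0.099 in Dnmt3C KO against WT and 0.21 in dKO against WT, and Zfp979 turned to 0.091 in dKO against WT. Over the libraries left out, these 3 ran from -1.24 to 0.099, from -1.14 to 0.21 and from -0.85 to 0.091. The number of members with their lowest mean in Nrf1 cKO, an alternative chosen after seeing the data, was 24 without WT replicate 2, 27 without Nrf1 cKO replicate 1, and 24 to 44 over all 11 libraries left out in turn. The cause was not tested.

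Over the libraries left out in turn, the median ran from -0.25 to 0.23 in Dnmt3C KO against WT, from -0.35 to 0.017 in Nrf1 cKO against WT, from -0.11 to 0.24 in dKO against WT, from 0.12 to 0.39 in dKO against Nrf1 cKO and from -0.055 to 0.21 in dKO against Dnmt3C KO. It ran from -0.13 to 0.048 for Nrf1 deletion, from 0.021 to 0.25 for Dnmt3C loss and from 0.12 to 0.47 for the interaction. Where WT was left with 1 library, it was assumed to vary like the other group.

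Same-numbered libraries did not deviate together in every pair (correlations from -0.31 to 0.26 over 20575 features). The correlations were all above 0 in dKO against Dnmt3C KO (0.092 to 0.244) and Dnmt3C KO against WT (0.032 to 0.265). They were all below 0 in dKO against Nrf1 cKO and dKO against WT, and of both signs in Nrf1 cKO against WT. This check cannot exclude that some libraries were paired, by litter or otherwise, and the main fits took them as unpaired. With the replicate number as a block, 0 members were called and the medians were -0.06 in Dnmt3C KO against WT, -0.31 in Nrf1 cKO against WT, -0.06 in dKO against WT, 0.24 in dKO against Nrf1 cKO, 0.08 in dKO against Dnmt3C KO, -0.09 for Nrf1 deletion, 0.08 for Dnmt3C loss and 0.41 for the interaction.

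The number of libraries, 2 in WT, limits every comparison with WT. The 8 members under 100 counts and the 12 with over 50% shared sequence have uncertain levels.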
